A study of Mus musculus with 4 samples.

Results

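The ribosomal protein genes of mouse dermal fibroblasts were followed on 4 arrays, with and without the gene Rbpj. Members were chosen by name: genes with a probe set of their own whose symbol starts with Rpl, Rps, Mrpl or Mrps and a number, together with Rplp0, Rplp1 and Rplp2, leaving out pseudogenes and the Rps6 kinases. This gave 125 genes of 18193 on the array, measured by 260 probe sets, of which 49 carry names of the cytosolic ribosome and 76 names of the mitochondrial ribosome. Of these, 123 genes lay at or above the 40th percentile of the mean level (5.28 on the log2 scale) and were analysed, 47 cytosolic and 76 mitochondrial, among 10916 genes in all. Rpl3l and Rps16 lay under that level. The name rule also takes in paralogs of ribosomal proteins (Rpl3l, Rpl7l1, Rpl22l1, Rpl39l, Rps4l and Rps27l), a gene named for binding to one of them (Rps19bp1), and Mrps36, whose product has since been assigned to the oxoglutarate dehydrogenase complex.

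Rbpj encodes RBP-Jκ, which binds DNA and turns target genes on together with an activated Notch receptor and holds them down without one. In vitro, cells that had received an adenovirus coding for Cre recombinase (Adeno Cre), labelled as RBP-Jk deleted, were set beside cells that had received one coding for green fluorescent protein (Adeno GFP). In vivo, fibroblasts of mice that carried both a Cre transgene labelled ColI and floxed alleles of the gene (RBP loxp-loxp) were set beside fibroblasts of floxed mice without the transgene. All 4 samples were labelled as C57BL/6, each group had 1 array, and no number of animals or cultures, pooling, age or sex was given, so the differences within each system lack replicates. Whether the in vivo cells were grown in culture before RNA was taken is not stated in the labels, and the labels do not say how far the ColI promoter restricted Cre to fibroblasts.

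Cytosolic ribosomes translate the messages of the nucleus and are built in the nucleolus from ribosomal RNA and the large (Rpl) and small (Rps) subunit proteins. Their genes are among the most abundantly transcribed of growing cells, and their messages typically begin with a C followed by a run of pyrimidines, the 5′ terminal oligopyrimidine (TOP) tract, through which mTOR sets their translation. Mitochondrial ribosomes translate only the few messages of the mitochondrial genome, all for subunits of the oxidative phosphorylation complexes, and their proteins (Mrpl and Mrps) are encoded in the nucleus and imported.

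The sequences around the annotated starts show how the gene families differ before any level is considered. RefSeq (GRCm38.p6) gave a start for 110 of the 125 genes, 43 cytosolic and 67 mitochondrial. The stretches shown run from 40 bases before to 20 bases after the start, 5′ to 3′ on the gene's own strand. They come from 4 cytosolic genes whose start has the TOP form, with the pyrimidines from the annotated start onwards in capitals. The pyrimidine run can reach further upstream, where it is left in lower case.
Rps6: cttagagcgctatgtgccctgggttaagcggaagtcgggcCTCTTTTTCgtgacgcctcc
Rplp2: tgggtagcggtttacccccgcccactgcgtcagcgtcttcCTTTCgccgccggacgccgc
Rpl35: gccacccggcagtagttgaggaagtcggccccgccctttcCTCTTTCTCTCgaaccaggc
Rps18: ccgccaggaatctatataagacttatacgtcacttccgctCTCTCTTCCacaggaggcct
The stretches lie at chr4:86857348-86857407 on the minus strand, chr7:141447611-141447670 on the plus strand, chr2:39005112-39005171 on the minus strand and chr17:33955646-33955705 on the minus strand. A C followed by 4 or more pyrimidines exactly at the annotated start was found in 8 of 43 cytosolic genes (18.6%), in 0 of 67 mitochondrial genes and in 3.01% of all 27025 genes with a start in the table. With a looser rule, a run of 8 pyrimidines beginning within 10 bases of the start, the shares were 39.5% (17 genes) of the cytosolic genes, 7.46% (5 genes) of the mitochondrial genes and 9.43% of all genes. Annotated starts can lie some bases away from the start in use, which the strict rule does not allow for.

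A second set shows the letters CCGGAAG, the core to which ETS-type factors such as GABP bind, searched on both strands over the 300 bases from 250 before to 50 after the start. The genes shown were among the lowest of their compartment after deletion in vitro and carry the letters, in capitals, inside the printed stretch.
Mrpl43: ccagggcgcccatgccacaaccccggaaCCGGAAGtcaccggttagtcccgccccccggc
Mrps12: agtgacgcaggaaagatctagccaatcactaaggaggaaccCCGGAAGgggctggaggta
Mrpl33: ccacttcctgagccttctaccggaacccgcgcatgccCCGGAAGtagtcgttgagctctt
Rpl37: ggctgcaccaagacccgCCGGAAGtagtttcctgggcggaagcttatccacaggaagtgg
They lie at chr19:45006423-45006482 and chr7:28741802-28741861 on the minus strand and at chr5:31613911-31613970 and chr15:5116573-5116632 on the plus strand. Genes near 0 in vitro carry the letters in the same stretch too, among them Mrps22 (-0.01), Mrpl3 (-0.07), Rpl19 (-0.06) and Rpl6 (-0.10). CCGGAAG was found in 25 of 67 mitochondrial genes (37.3%), in 20 of 43 cytosolic genes (46.5%) and in 9.93% of all genes. The YY1-type letters ATGGCGGC were found in 11 mitochondrial genes (16.4%), 1 cytosolic gene (2.33%) and 2.61% of all genes. GTGGGAA, part of the sequence that RBP-Jκ itself binds, was found in 6 mitochondrial genes (8.96%), 4 cytosolic genes (9.30%) and 7.25% of all genes. CACGTG, the E-box bound by Myc and Max, was found in 5 (7.46%), 4 (9.30%) and 8.09%. All were searched on both strands of the same window, the overlap between motifs was not removed, and a match is a description of letters, not of binding.

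After deletion in vitro, the mitochondrial ribosomal protein genes were lower almost throughout, the cytosolic ones were lower by less, and in vivo neither set moved away from the bulk of the genes. The median difference, deleted minus control, was -0.60 on the log2 scale over 76 mitochondrial genes in vitro (a 1.51-fold lower signal) and -0.30 over 47 cytosolic genes (1.23-fold lower), beside -0.06 over all 10916 genes. In vivo the medians were 0.06, -0.02 and -0.03. The median of the mitochondrial set was therefore 0.29 log2 further down than that of the cytosolic set in vitro (a difference of medians of -0.29) and 0.08 above it in vivo. The compartments were not matched for mean level.

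**Figure D1:**
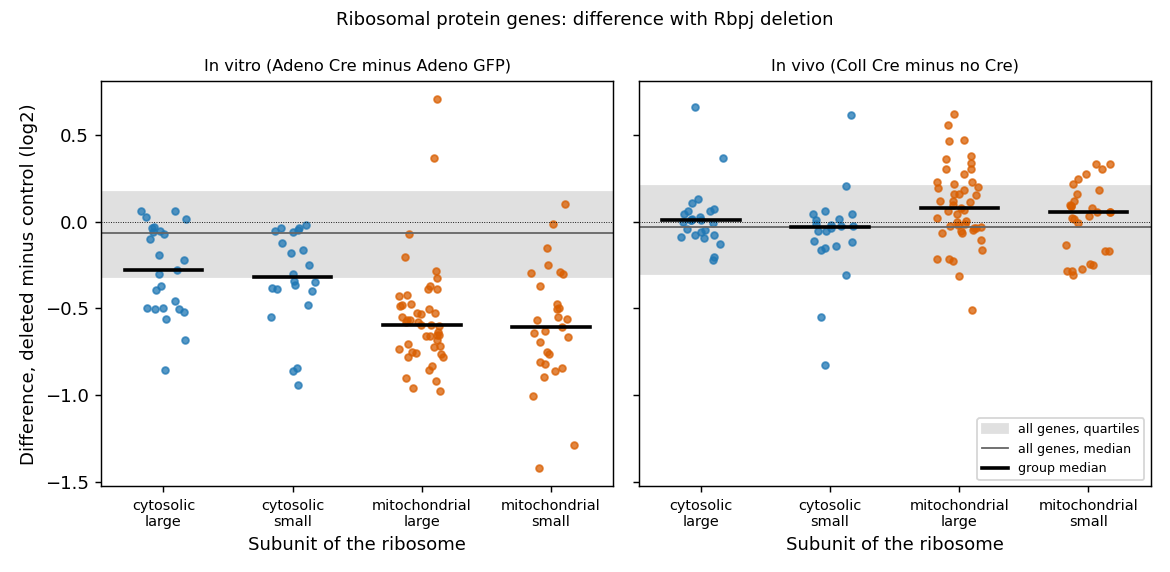
Each point is 1 ribosomal protein gene, placed by its difference of log2 signal between the deleted and the control array in vitro (left) and in vivo (right), split by compartment and subunit; the grey band and line give the quartiles and median of all 10916 genes. In vitro the mitochondrial medians are -0.60 (large subunit) and -0.61 (small subunit) and lie below the grey band, and in vivo all 4 medians lie between -0.03 and 0.08.

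The signal of Rbpj was lower on the deleted arrays, though not clearly in each of its 3 probe sets. In vitro their differences were -1.34, -1.11 and 0.10, and in vivo -0.83, -0.10 and -0.49. The brightest of them, the kind used for every other gene, gave -1.11 in vitro and -0.10 in vivo. That in vivo value lay within the quartiles of all genes, -0.30 to 0.21. Where these probe sets lie relative to the deleted exons is not stated in the labels. As markers of the labelled cell type, all 8 of 8 fibroblast genes (Col1a1, Col1a2, Col3a1, Dcn, Lum, Pdgfra, Vim and Thy1) were above the 40th percentile level on every array. The deposited medians of the 4 arrays ran from 4.94 to 5.06 and their upper quartiles from 6.91 to 7.18, and all values below were quantile normalised over the 4 arrays.

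The in vitro deleted array was the lowest of the 4 for most members. The median level of the 76 mitochondrial genes was 8.21 on that array, 8.91 on its control, 8.73 on the in vivo deleted array and 8.69 on the in vivo control. For the 47 cytosolic genes the medians were 12.48, 12.65, 12.62 and 12.67 in the same order. For 69 of 76 mitochondrial genes (90.8%) the lowest of the 4 values was on the in vitro deleted array. So it was for 36 of 47 cytosolic genes (76.6%), beside 32.6% of all genes analysed. The highest value was on the in vitro control for 30 of 76 mitochondrial genes (39.5%) and 22 of 47 cytosolic genes (46.8%). Over all genes that share was 26.0%. The control arrays of the 2 systems lay close together: in vitro control minus in vivo control had a median of 0.05 over the mitochondrial genes, 0.01 over the cytosolic genes and -0.01 over all. In that comparison 1 member was at least 2-fold apart (Mrps25, by 1.08), beside 5.82 percent of all genes higher and 4.54 percent lower. At 1.5-fold, 3 cytosolic and 4 mitochondrial genes were higher, beside 14.2 percent of all genes, and 1 and 3 were lower, beside 14.3 percent. Below 0 were 20 cytosolic and 33 mitochondrial genes, beside 50.4 percent.

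**Figure D2:**
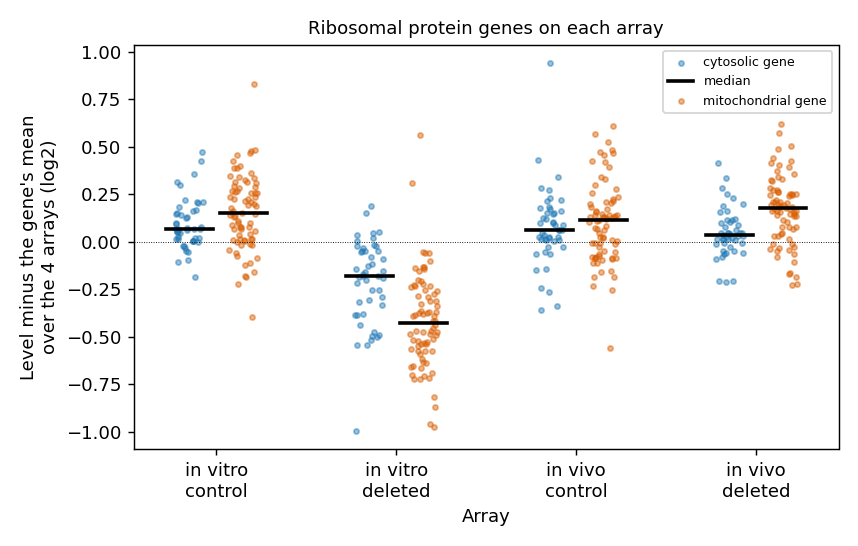
For every ribosomal protein gene the log2 level on each array is plotted after subtracting the gene's mean over the 4 arrays, cytosolic genes in blue and mitochondrial genes in orange, with a bar at the median of each set. The in vitro deleted array stands below the other arrays for 69 of 76 mitochondrial and 36 of 47 cytosolic genes.

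Mitochondrial genes at least 2-fold lower in vitro numbered 3 of 76, and 0 were 2-fold higher, beside 1.15 percent of all genes lower and 0.788 percent higher. The probe sets of 2 of these 3 genes, Mrps24 and Mrps12, carry a suffix for probes shared with other transcripts (_s_at), and without such probe sets the count of members 2-fold lower was 1. At 1.5-fold, 39 of 76 were lower and 1 was higher, beside 9.66 and 5.1 percent of all genes. A difference below 0 was found in 73 of 76, beside 57.5 percent of all genes. The middle 50 percent of mitochondrial genes lay between -0.75 and -0.46, so the shift was spread over the family rather than carried by its extremes. Both subunits shared it, with a median of -0.60 over 47 large subunit genes (45 below 0) and -0.61 over 29 small subunit genes (28 below 0).

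Mrps25, a protein of the small mitochondrial subunit, had the lowest difference of any member. Its levels were 7.50 on the in vitro deleted array, 8.92 on its control, 8.10 on the in vivo deleted array and 7.83 on the in vivo control. The in vitro control was the highest of the 4 and the in vitro deleted array the lowest, for an in vitro difference of -1.42 (2.67-fold lower) and an in vivo difference of 0.27. Its other probe set above the level filter gave -0.80 in vitro.

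Mrps24, also of the small subunit, gave levels of 8.21, 9.50, 9.40 and 9.64 in the same order. The in vitro deleted array alone was low, by -1.28 (2.44-fold) against its control, while the in vivo difference was -0.25, and a further probe set gave -0.99 in vitro. Mrps12, the homologue of the bacterial decoding-centre protein S12, had levels of 7.85, 8.86, 8.71 and 8.64. Again a single array was low, with differences of -1.01 (2.01-fold lower) in vitro and 0.08 in vivo.

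Among large subunit genes, Mrpl43 was lowest, at 8.32 on the in vitro deleted array against 9.29, 9.25 and 9.29 on the others. The 3 other arrays lay within 0.05 of each other, and the in vitro difference was -0.98 (1.97-fold). Mrpl54 followed with levels of 7.35, 8.31, 8.36 and 8.28 and an in vitro difference of -0.96, again with a single low array. Mrpl33 gave -0.92 in vitro and -0.01 in vivo, and Mrpl51 -0.90 and 0.12. Small subunit genes Mrps21, Mrps6 and Mrps16 followed at -0.89, -0.86 and -0.84 in vitro, with in vivo differences of -0.29, -0.25 and -0.29.

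A few mitochondrial genes did not share the shift. Mrpl50, of the large subunit, was the highest of all members in vitro, at 7.09 against 6.39, and was also higher in vivo, at 7.11 against 6.55. Both deleted arrays lay above both controls, which put its differences at 0.70 and 0.56, but its other probe set gave -0.00 and 0.20. Mrpl1, homologue of the bacterial stalk protein L1, had levels of 6.61, 6.24, 5.86 and 5.49, with differences of 0.37 and 0.38. Its in vitro arrays were both above its in vivo arrays, and its other probe set gave -0.12 in vitro. The remaining gene above 0 was Mrps2, at 0.10 and 0.09, and Mrps22 and Mrpl3 lay just below 0 in vitro, at -0.01 and -0.07.

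As a set, the cytosolic genes were lower in vitro by smaller amounts. None of 47 was 2-fold lower or higher, 5 were at least 1.5-fold lower and 0 were 1.5-fold higher, which in number is near the background of 9.66 percent given above. Below 0 lay 43 of 47. That count depended on the reference, since it was 33 of 47 after centring on the median of all genes, and 27 of 47, with a median of -0.09, after removal of a trend on gene span. The middle 50 percent ran from -0.49 to -0.06, with a median of -0.32 over 22 small subunit genes (22 below 0) and -0.28 over 25 large subunit genes (21 below 0). The whole cytosolic range in vitro, -0.94 to 0.06, was narrower than the mitochondrial range of -1.42 to 0.70.

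Proteins of the ribosomal stalk, which recruits the elongation factors, differed from each other. Rplp2, a stalk protein, had levels of 12.39 on the in vitro deleted array, 13.07 on its control, 13.04 on the in vivo deleted array and 13.05 on the in vivo control. The single low array gave a difference of -0.68 (1.60-fold) in vitro, beside -0.01 in vivo. Rplp0, the base of the same stalk and a common reference gene, had levels of 12.65, 12.63, 12.70 and 12.69. These 4 values span less than 0.1, and the differences were 0.02 and 0.01. The large subunit proteins Rpl4 and Rpl7a were likewise flat, with in vitro differences of 0.02 and 0.06 and in vivo differences of 0.01 and 0.04.

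Rps25, a small subunit protein known for its part in initiation from viral internal entry sites, was lower on the deleted array of both systems. Its only probe set had a mean level of 8.58, while 33 of the 47 cytosolic genes lay at 12 or more. How much of the main Rps25 message this probe set reports was not tested. Its levels were 7.59 on the in vitro deleted array, 8.52 on its control, 8.69 on the in vivo deleted array and 9.52 on the in vivo control. Each deleted array lay below its own control, by -0.94 (1.92-fold) and -0.83 (1.77-fold), although the in vivo deleted array was above the in vitro control. Rps4l, a paralog of the X-linked Rps4x, had levels of 9.14, 9.99, 9.43 and 9.98. Both of its deleted arrays lay below both controls, with differences of -0.84 and -0.55. Rps4x itself gave -0.04 and 0.06. Rps25 and Rps4l were the 2 of 47 cytosolic genes (4.26%) more than 0.5 below 0 in both systems, and 1 of 76 mitochondrial genes (1.32%) was, beside 328 of all 10916 genes, so the members were near the background. The mitochondrial gene was Mrpl55, at 6.86, 7.46, 7.33 and 7.84, with differences of -0.60 and -0.51.

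Rps25 was followed in the cytosolic order in vitro by Rps19bp1 at -0.86 (0.21 in vivo) and Rpl37, a zinc-binding protein of the large subunit, at -0.85 (-0.20 in vivo). After Rps4l and Rplp2, Rpl27 gave -0.56, Rps27 -0.55 and Rpl22 -0.50. Rpl11, which with Rpl5 binds Mdm2 when ribosome assembly fails, gave -0.52 in vitro and 0.13 in vivo. Small subunit genes known from inherited or acquired anaemia, Rps19 and Rps14, had in vitro differences of -0.35 and -0.36 and in vivo differences of -0.16 and -0.11. The common reference genes Rps18 and Rpl13a had in vitro differences of -0.39 and -0.22 and in vivo differences of -0.05 and 0.00.

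Paralogs were set beside the gene each resembles. Rpl22l1 gave -0.20 in vitro, against -0.50 for Rpl22, which in other cells represses it. Rpl39l, a paralog prominent in the testis, gave -0.37 against -0.03 for Rpl39, and Rps27l gave -0.34 against -0.55 for Rps27. The only probe sets of Rpl39 and Rps27 had mean levels of 5.95 and 7.15, beside 10.36 for Rpl39l and 11.57 for Rps27l. How much of the main Rpl39 and Rps27 messages they report was not tested, so neither pair compares a paralog with its parent gene. Rpl7l1 gave -0.06 against -0.04 for Rpl7, but further Rpl7l1 probe sets above the level filter gave 0.36 and -0.44 in vitro. Rpl3l, the paralog that heart and skeletal muscle use in place of Rpl3, had levels of 3.85, 4.19, 4.66 and 4.47, under the level filter on all 4 arrays. Rps16 was likewise low throughout, between 3.52 and 3.998. Its product is an obligate part of the small subunit, and this probe set reported signal near the bottom of the scale.

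Markers of other cell types moved with the in vivo comparison. The summed linear signal of 11 keratinocyte markers was 6704 on the in vivo deleted array and 651 on its control, with 7 of 11 at least 2-fold higher, and that of 12 skeletal muscle markers was 3752 and 913, with 10 of 12 at least 2-fold higher. In vitro the same sums were 902 and 1359 for keratinocytes, with 3 of 11 at least 2-fold lower, and 499 and 591 for skeletal muscle. Fibroblast markers summed to 69082 and 60732 in vitro and to 54662 and 55147 in vivo. By single genes, 7 of 8 fibroblast markers were above 0 in vitro. In vivo 3 were above 0 and 5 below, with Lum at -1.06 and Pdgfra at -0.59. Macrophage sums were 681 and 782 in vitro and 418 and 518 in vivo, with Ptprc, Aif1 and Mrc1 under the level filter on every array, and of the endothelial genes Pecam1, Cdh5, Vwf and Emcn were under it on every array. The part of the keratinocyte and muscle signal in the in vivo values, of the ribosomal proteins and of the biogenesis factors alike, was not tested, and in bulk RNA fewer cells of a type and less RNA per cell cannot be told apart.

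In vivo the same genes stayed close to their control. No member was 2-fold lower or higher, beside 3.81 and 2.81 percent of all genes. Of the 47 cytosolic genes 1 was at least 1.5-fold lower and 2 were higher, and of the 76 mitochondrial genes 0 were lower and 1 was higher, beside 11.2 and 8.02 percent of all genes. Differences lay within 0.25 of 0 for 41 of 47 cytosolic genes (87.2%) and 55 of 76 mitochondrial genes (72.4%), beside 48.8% of all genes. In vitro the counts were 21 cytosolic and 5 mitochondrial genes, beside 50.5% of all genes. A difference below 0 in vivo was found in 26 cytosolic and 28 mitochondrial genes, beside 53.6 percent of all genes. These shares of all genes were not matched for level. At a mean level of 12 or more, the middle 50 percent of 95 other genes lay between -0.14 and 0.14 in vivo. That of the 33 cytosolic genes there lay between -0.08 and 0.02. Of those 95 genes, 0 were 2-fold lower or higher in vivo, so other bright genes also stayed near 0.

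The in vivo extremes were few. Rpl12, a protein at the base of the stalk, had levels of 7.15 on the in vivo deleted array and 6.49 on its control, and 6.40 and 6.90 in vitro. Rps6, the small subunit protein phosphorylated downstream of mTOR, had 7.90 and 7.29 in vivo, and 7.46 and 7.95 in vitro. Both therefore differed in opposite directions in the 2 systems, by 0.66 and 0.61 in vivo and by -0.50 and -0.48 in vitro. The probe sets of Rpl12 and Rps6 had mean levels of only 6.74 and 7.65. The 33 cytosolic genes at a mean level of 12 or more ranged from -0.22 to 0.13 in vivo. Mrpl12, which also binds the mitochondrial RNA polymerase, had the highest mitochondrial difference in vivo, at 9.59 against 8.97, a difference of 0.62 (1.54-fold), with 8.57 against 9.22 (-0.66) in vitro. Mrpl18 and Mrpl47 showed the same pair of signs, each at 0.47 in vivo, with in vitro differences of -0.64 and -0.71. The lowest mitochondrial genes in vivo after Mrpl55 were Mrpl14 and Mrps14, both at -0.31.

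One fit joined the systems. In limma, with system as a covariate and 1 residual degree of freedom, 0 of 10916 genes passed a Benjamini-Hochberg adjusted p of 0.05, and 759 (6.95 percent) had an unadjusted p under 0.05. Of the members, 4 were among the latter. Rps25 had a shared effect of -0.88 (SE 0.20) with an adjusted p of 0.679 in limma, Rps4l -0.70 (SE 0.21), Mrpl55 -0.55 (SE 0.20) and Mrpl50 0.63 (SE 0.20). No shared effect of deletion on a ribosomal protein gene was therefore called, and this fit does not test the in vitro shift, since the in vivo medians did not share it.

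Most members that have more than 1 probe set gave the same sign with each of them in vitro. Of 28 such mitochondrial genes, 21 had all probe sets above the level filter below 0, 1 had all above 0 and 6 were mixed. For 20 cytosolic genes the counts were 16, 0 and 4. In vivo 7 of the 20 cytosolic genes had all below 0, 1 all above and 12 were mixed, and of the 28 mitochondrial genes 5 had all below 0, 14 all above and 9 were mixed. Probe sets of a gene lay more than 1 log2 apart in vitro for Mrps5 only, from -0.76 (the brightest) to 0.39, and in vivo for Rps9 only, from -0.13 to 1.21. Ribosomal protein genes have many processed pseudogenes, and 41 of 92 cytosolic probe sets above the filter (44.6%) carried the array's suffix for probes shared with other transcripts (_x_at or _s_at), beside 19 of 117 mitochondrial ones (16.2%). Signal of such probe sets can include near-identical copies.

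Bright members and other bright genes had in vitro medians of opposite sign. At a mean level of 12 or more, 33 cytosolic members had a median difference of -0.22, with 90.9% below 0, while the 95 other genes of that level had a median of 0.13, with 26.3% below 0. Their median genomic spans were 3807 and 12595 bases, so these sets were not matched for gene span. Array signals near the top of the scale are compressed, so a difference there may be understated. The mitochondrial members all lay below 12. At levels of 8 to 9 the cytosolic and mitochondrial medians were -0.86 (n = 3) and -0.57 (n = 29). At 9 to 10 they were -0.84 (n = 3) and -0.60 (n = 26). At 7 to 8 they were -0.51 (n = 3) and -0.60 (n = 15). At 10 to 12 they were -0.34 (n = 3) and -0.76 (n = 3). At 5 to 7 they were -0.26 (n = 2) and 0.37 (n = 3). The part of level in the gap between compartments was not tested. Over the 76 mitochondrial genes the Spearman correlation of the in vitro difference with mean level was -0.13, and over the 47 cytosolic genes 0.38. The points in each correlation share the same pair of arrays.

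**Figure D3:**
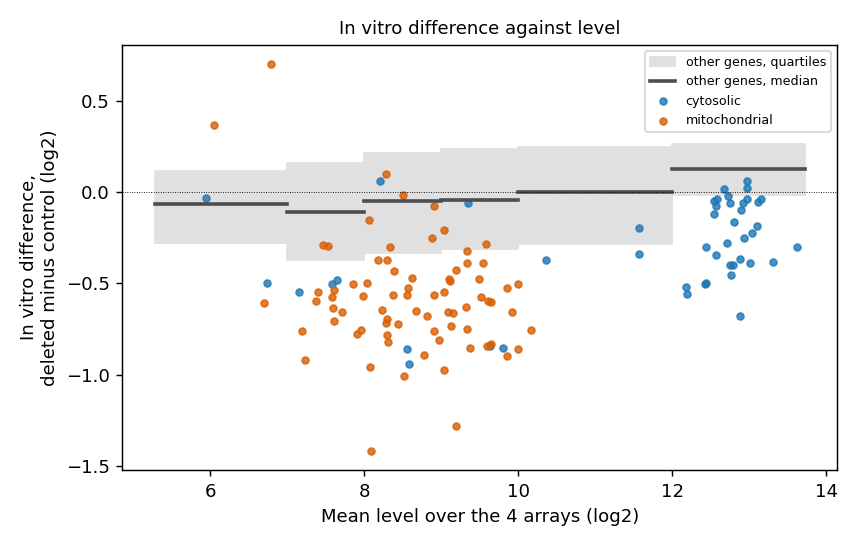
In vitro difference (deleted minus control, log2) against the mean log2 level over the 4 arrays for every ribosomal protein gene, with the median and quartiles of all other genes in grey for 6 ranges of level. At levels of 12 and over the 33 cytosolic members have a median of -0.22 and the 95 other genes 0.13, not matched for gene span.

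Gene size went with the in vitro difference over the whole array, and ribosomal protein genes are short. The median genomic span, introns included, was 3551 bases for the cytosolic genes and 7690.5 for the mitochondrial genes, beside 23267.5 for all genes. In the shortest 25 percent of genes (up to 9826.5 bases) the 2628 other genes had an in vitro median of -0.19, with 71.0% below 0. All 47 cytosolic genes fell in this range, with their median of -0.30, and so did 51 mitochondrial genes, with a median of -0.63. Mitochondrial genes of the next range, up to 23267.5 bases, had a median of -0.52 (n = 17), beside -0.08 for the others of that span. The 8 longest mitochondrial genes had medians of -0.75 (n = 3) and -0.61 (n = 5), beside -0.01 and 0.03 for other genes of their range. With the trend on span removed, the in vitro median was -0.47 for the mitochondrial genes, 72 of 76 below 0, beside 54.5% of all genes. For the cytosolic genes it was -0.09, with 27 of 47 below 0, a share close to that of all genes.

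**Figure D4:**
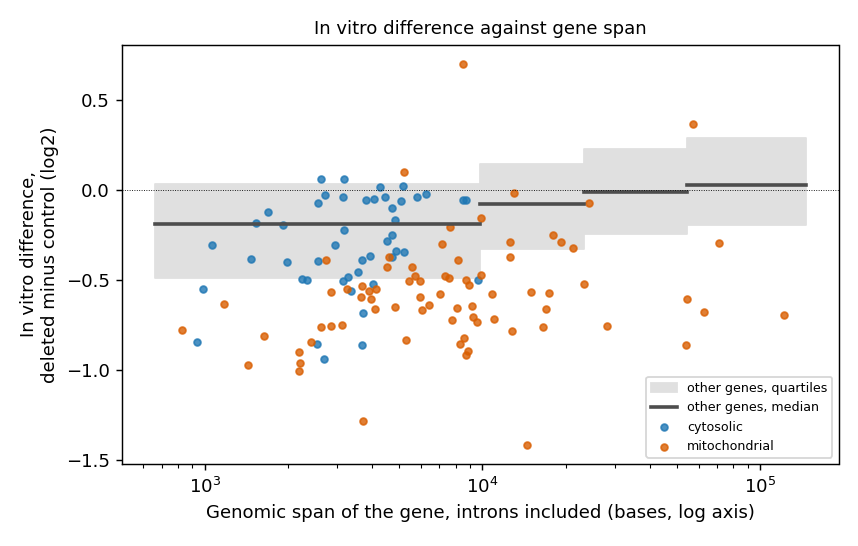
In vitro difference (deleted minus control, log2) against the genomic span of each ribosomal protein gene on a log axis, with the median and quartiles of all other genes in grey for each of 4 ranges of span. The grey median moves from -0.19 in the shortest genes to 0.03 in the longest, and the mitochondrial medians lie below it in all 4 ranges.

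RNA integrity controls, which compare the ends of a message, were unlike on the arrays made in vitro. The 3′ minus 5′ difference of the Gapdh control probe sets was 0.019 log2 on the in vitro deleted array and 1.003 on its control, against 0.13 and 0.14 in vivo. For Actb the deleted and control values were 0.40 and 1.11 in vitro, beside 0.15 and 0.41 in vivo. For Pcx they were 2.01 and 3.16 in vitro, beside 0.83 and 1.10 in vivo. Tfrc ran the other way in vitro, at 1.45 and 0.96, with 1.54 and 1.25 in vivo. Its 5′ levels lay between 3.76 and 3.82, under the level filter of 5.28, and its 3′ levels between 4.78 and 5.33. The Tfrc values therefore rest on signal near the bottom of the scale and say little about integrity. For Gapdh, Actb and Pcx the in vitro control had the highest value of the 4 arrays. The part of this difference between the in vitro arrays in the in vitro result was not tested.

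Members were also divided by the letters in their promoters. The 8 cytosolic genes with a TOP-form start (Rpl14, Rpl35, Rpl38, Rplp2, Rps10, Rps18, Rps27 and Rps6) had a median of -0.47, beside -0.20 for 33 others, while the looser pyrimidine rule gave -0.28 with and -0.28 without. These sets were not matched for level, and the probe sets of Rpl14, Rps27 and Rps6 had mean levels of only 7.58, 7.15 and 7.65. Mitochondrial genes with CCGGAAG had a median of -0.64 (n = 25), beside -0.57 without (n = 42). Those with ATGGCGGC were less low, at -0.39 (n = 11) against -0.60 (n = 56). The 6 mitochondrial genes with the RBP-Jκ-type letters (Mrpl3, Mrpl39, Mrpl58, Mrps11, Mrps22 and Mrps30) had a median of -0.23, beside -0.60 for 61 without. Single genes overlapped between the sets. These are descriptions of small sets and were not tested.

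Genes that work with the ribosomal proteins did not move as one. For the mitochondrial ribosome, 4 subunit genes named outside the Mrp scheme had an in vitro median of -0.48 and an in vivo median of 0.16. Chchd1 gave -0.71, Gadd45gip1 -0.62 and Dap3 -0.34 in vitro, while Ptcd3, which binds the mitochondrial messages, gave 0.11. The 15 mitoribosome assembly factors had an in vitro median of -0.32 (13 below 0) and an in vivo median of 0.06, with Mterf4, which brings a methyltransferase to the large subunit, at -0.76 in vitro. The 8 mitochondrial translation factors were nearer to the bulk of genes, at -0.17 and -0.02, with the initiation factor Mtif3 at -0.95, the elongation factor Tsfm at -0.58, and Tufm and Gfm1 at -0.01 and 0.03 in vitro.

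On the cytosolic side, Fau, whose product is processed into the small subunit protein eS30, gave -0.37 in vitro and -0.05 in vivo. A list of 16 other genes with TOP messages, mostly translation factors, had an in vitro median of 0.08 and an in vivo median of -0.02. It also held Btf3, Hnrnpa1, Naca, Nap1l1 and Tpt1, and the TOP tracts of this list were not looked up in the starts. The cytosolic genes had -0.30 in vitro. The sets were not matched for gene span, whose median was 11905.5 bases for the TOP list and 3551 for the cytosolic genes. Within the TOP list Eif3k gave -0.86 and Eef1d -0.62 in vitro, while Eif4b gave 0.52 and Pabpc1, the poly(A)-binding protein, 0.51. The 10 growth control genes had medians of 0.12 in vitro and 0.18 in vivo. Myc, an activator of ribosome production, gave 0.65 and 0.99, and its partner Max -0.02 and 1.35. Pdcd4, an inhibitor of translation initiation, gave 0.03 and -0.99, and was the 1 growth control gene below 0 in vivo.

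The machinery that makes ribosomes gave another pattern. Over 34 nucleolar biogenesis factors the in vivo median was 0.63, with 33 of 34 above 0, 3 past 2-fold and 19 past 1.5-fold in that direction, beside 46.4, 2.81 and 8.02 percent of all genes, while in vitro the median was -0.05. Dkc1, the pseudouridine synthase of the box H/ACA particles, gave 1.52 in vivo and 0.07 in vitro. Nop58, a core protein of the box C/D particles, gave 1.43 and -0.03, and Wdr12, a large subunit assembly factor, 1.16 and -0.22. The H/ACA proteins Nhp2 and Gar1 gave 0.93 and 0.65 in vivo but -0.90 and -0.75 in vitro, and the C/D methyltransferase Fbl 0.57 and -0.58. The 11 RNA polymerase I genes had medians of 0.21 in vivo and -0.22 in vitro, led in vivo by Taf1d at 1.05 and Polr1b at 0.74. Ribosomal protein messages thus lay near 0 on the in vivo deleted array while those of the assembly factors were higher on it, the same array on which keratinocyte markers summed to 6704 against 651.

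**Figure D5:**
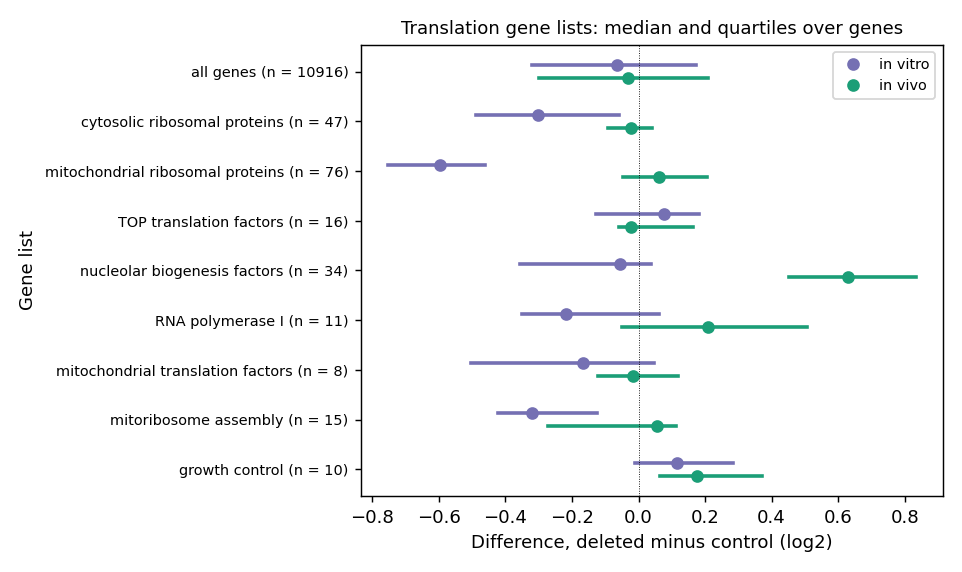
Median difference (deleted minus control, log2; dot) and quartiles over genes (bar) in vitro and in vivo for all genes, the ribosomal protein sets and 6 other lists of translation and growth genes. The mitochondrial set has the lowest in vitro median (-0.60) of those plotted and the nucleolar biogenesis factors the highest in vivo median (0.63).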

How the data were processed

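Poly(A) RNA was reverse transcribed with a T7 oligo(dT) primer and labelled with biotin as cRNA, per the labels' protocols. The deposited table holds log2 values, read as such from their range of 2.87 to 13.79, for 45101 probe sets on 4 arrays, and the authors' software and normalization are not given in the sources used here. Values were quantile normalised (limma 3.58.1, R 4.3.3), because the columns' upper quartiles differed. The platform annotation named 35890 probe sets. Of these, 34945 had 1 gene symbol, 932 had several and were left unnamed, and the remainder of those listed were left out as control probe sets, of which the array has 64. Symbols of 34741 were updated through RefSeq (GRCm38.p6). A gene was represented by its brightest probe set, and levels of different genes were set side by side only as a description of the probe sets. Genes at or above the 40th percentile of the mean level were kept.

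Differences are deleted minus control, log2, with 1 array a group and no test, and counts use 2-fold and 1.5-fold. limma (lmFit, eBayes, Benjamini-Hochberg) fitted the shared effect and was checked on simulated data. Named members were those at least 2-fold apart, the 5 highest and 5 lowest for each compartment and comparison, paralogs with their partners and a few set genes, and from each other list mainly the largest differences. Mrpl33, Mrpl51, Mrps6 and Rpl27 were picked after their values were seen. Members, lists and motifs were chosen with earlier results of these data known. Gene span and promoter windows came from RefSeq, with Python 3.11.15 and pandas 2.3.3. Lists of adipocyte, smooth muscle and Schwann cell markers were also summed. Adipocyte sums were 14098 and 13406 in vitro and 5037 and 6707 in vivo, deleted and control, although 4 of the 5 adipocyte markers were higher in vivo with a median difference of 0.64. In the same order, smooth muscle sums were 8272 and 6859, and 10647 and 9111, and Schwann cell and melanocyte sums 152 and 162, and 186 and 167. Alternatives changed normalization, centring, offset, level filter, choice of probe set, gene span, membership and fold threshold.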

Additional observations from a re-analysis of the deposited data

Results flagged for a closer look

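The mitochondrial ribosomal protein genes differed between the systems in sign: the median difference, deleted minus control, was -0.60 in vitro and 0.062 in vivo on the log2 scale. Mrps12 showed the same contrast, at -1.01 in vitro and 0.076 in vivo, and so did Mrps25, at -1.42 in vitro and 0.27 in vivo. In each case the single deleted array of one system lay below its control and that of the other lay above it. With 1 array a group the difference between the systems was not tested.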

How the results depend on the processing

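The in vitro medians stayed below 0 under every setting tried, from -0.61 to -0.47 for the mitochondrial genes and from -0.35 to -0.089 for the cytosolic genes, and their gap ran from -0.38 to -0.22. Both ends nearest 0 of the medians, -0.47 and -0.089, came with the trend on genomic span removed. In vivo the mitochondrial median ran from 0.03 to 0.09 and the cytosolic one from -0.05 to 0.01, so its sign depended on the setting. The count of members at least 2-fold lower in vitro was 3. It became 1 without _x_at and _s_at probe sets and 7 with every probe set as an entry of its own, and 44 at 1.5-fold and 0 at 3-fold. Members higher in vitro went from 0 to 1 at 1.5-fold. In vivo, members lower went from 0 to 1 at 1.5-fold, and members higher from 0 to 1 without _x_at and _s_at probe sets, to 1 with every probe set separate and to 3 at 1.5-fold. Of 962 values for named members, 883 moved by no more than 0.1 and 79 by more. The sign changed in 35, and 13 of these moved by more than 0.1, among them Mrpl1 (0.37 to -0.12) and Mrpl47 (-0.71 to 0.13) in vitro when probe sets were combined by their median. Mrps25 ranged from -1.42 to -0.80 in vitro. limma called 0 genes at an adjusted p of 0.05 under each alternative fit, with 131 to 1230 genes at an unadjusted p under 0.05. No paired analysis was possible because the labels give no replicate numbers, apart from the system term of the limma fit, without which 131 genes had an unadjusted p under 0.05 against 759 with it. With 1 array a group the spread between cultures, animals and hybridisations is unknown, and signals near the bottom or top of the scale understate differences.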
